A study of Mus musculus with 12 samples.

Results

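The immunity-related GTPases (IRG proteins) are GTPases whose genes are switched on by interferons. Their messenger RNA was examined here in Sp37A3 cells, an immature dendritic cell (DC) line from mouse spleen, with the related very large inducible GTPase gene Gvin1. The group is defined by gene name, with no threshold on a measured value, though it was chosen with earlier results of these data known. It holds 8 genes (Irgm1, Irgm2, Igtp, Iigp1, Ifi47, Tgtp1, Tgtp2 and Gvin1) of the 55401 in the count table. 7 of the 8 were expressed enough to be tested, among 14079 tested genes in all. RNA sequencing covered 12 libraries in 4 groups of 3 replicates. CtrV cells had been transduced with an empty lentiviral vector. EKO cells had received the vector with a guide for CRISPR/Cas9 editing of Siglece, the gene of the inhibitory receptor Siglec-E. EKO cells were a pool of several clones, each grown from a single sorted cell and screened for Siglec-E, so an effect of the edit and of the choice of clones cannot be told apart. Both lines were grown with GM-CSF and M-CSF, and cells of all 4 groups received lipopolysaccharide (LPS) for 24 h before RNA was taken. Cells of the OVA groups were first pulsed with ovalbumin for 2 h, and the other groups were not.

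IRG proteins guard the cytosol against intracellular parasites and bacteria. Effector IRG proteins, which carry the amino acids GKS in the nucleotide-binding loop, load onto the membrane of the vacuole in which the pathogen lives and disrupt it. Regulatory IRG proteins, which carry GMS in its place, sit on the membranes of the host cell and keep the effectors inactive there. Irgm1, Irgm2 and Igtp (Irgm3) encode the regulators. Iigp1 (Irga6), Ifi47 (Irgd), Tgtp1 and Tgtp2 (Irgb6) encode effectors. Gvin1 encodes a much larger GTPase of a related family. Interferon gamma acts on such genes through GAS sequences in their promoters, and type I interferon acts through the interferon-stimulated response element (ISRE), which is bound by a complex that holds STAT2 and IRF9.

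The split between regulators and effectors can be read from the coding sequence of the loop, which is shown because the share of both classes is compared further on. Each stretch is on the coding strand, 5′ to 3′, from the GENCODE transcripts of GRCm38 (mm10), and capitals mark the codon that makes the difference, ATG for methionine in GMS and AAG for lysine in GKS.
Irgm1, chr11:48866755-48866790, minus strand: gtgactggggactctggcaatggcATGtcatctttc
Irgm2, chr11:58219689-58219724, plus strand: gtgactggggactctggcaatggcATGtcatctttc
Igtp, chr11:58206269-58206304, plus strand: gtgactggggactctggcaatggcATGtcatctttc
Ifi47, chr11:49095642-49095677, plus strand: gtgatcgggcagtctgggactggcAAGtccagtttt
Tgtp1, chr11:48987661-48987696, minus strand: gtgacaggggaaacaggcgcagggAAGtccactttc
Tgtp2, chr11:49059528-49059563, minus strand: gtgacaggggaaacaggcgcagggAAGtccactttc
Gvin1, chr7:106160749-106160784, minus strand: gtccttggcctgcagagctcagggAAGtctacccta
The 36 bases are identical in the 3 regulators, and identical in Tgtp1 and Tgtp2.

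The 6 expressed IRG genes lie in 2 clusters on chromosome 11. Irgm1 (ENSMUSG00000046879, 48861968 to 48871683, minus strand), Tgtp1 (ENSMUSG00000078922, 48985327 to 48994172, minus), Tgtp2 (ENSMUSG00000078921, 49057194 to 49064206, minus) and Ifi47 (ENSMUSG00000078920, 49076587 to 49096974, plus) share a span of 235 kb. Igtp (ENSMUSG00000078853, 58199556 to 58207591, plus) and Irgm2 (ENSMUSG00000069874, 58199618 to 58222782, plus) share 23.2 kb, 9.10 Mb further on. Gvin1 (ENSMUSG00000045868, 106156556 to 106215326, minus) is on chromosome 7. Some of these genes are close copies, which limits what a count per gene can tell. Of the 50-base stretches of Gvin1 transcripts, 99.2% also occur in another gene, mostly Gm4070. The share was 86.6% for Tgtp2 and 81.2% for Tgtp1, mostly with each other. It was 11.8% for Igtp and 7.77% for Irgm2, mostly with each other, and 2.54% for Ifi47 and 0.310% for Irgm1. Igtp and Irgm2 also have 162 exon bases in common on the same strand. Tgtp1 shares 223 with Gm12185, and Ifi47 shares 111 with Olfr56 on its own strand and 106 with Gm12188 on the other. Reads that fitted several places equally well were given 1 place, and whether strand was used in counting is not stated. Counts of Tgtp1 against Tgtp2 and of Gvin1 against Gm4070 are therefore uncertain as single genes.

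RefSeq promoters on GRCm38.p6 were used for 6 of the 8 genes, without Iigp1 and Gvin1. In the 250 bases upstream of the start, the ISRE core (GAAA, any 2 bases, and GAAA again, or on the other strand TTTC, any 2 bases, and TTTC) occurred in 5 of the 6, against 2.98% of all 32851 promoters. The GAS sequence TTCNNNGAA, which reads the same on both strands, occurred in 4 of the 6, against 7.02% of all promoters. In Irgm2, Igtp, Tgtp1 and Tgtp2 a GAS was followed after 2 bases by an ISRE core. This joint arrangement, searched for after it had been seen in these genes, occurred in 5 promoters in all (0.0152%), the other being that of Gm12185, another IRG gene. The stretches around it are given because genes of both clusters and both classes share it, with the GAS and the ISRE core in capitals. They are written on the strand of the gene.
Igtp, chr11:58199491-58199551, plus strand: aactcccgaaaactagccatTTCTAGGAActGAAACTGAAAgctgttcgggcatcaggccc
Irgm2, chr11:58214882-58214942, plus strand: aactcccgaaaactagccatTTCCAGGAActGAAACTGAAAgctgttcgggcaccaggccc
Tgtp1, chr11:48992294-48992354, minus strand: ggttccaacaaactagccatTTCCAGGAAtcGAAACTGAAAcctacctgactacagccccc
Tgtp2, chr11:49064253-49064313, minus strand: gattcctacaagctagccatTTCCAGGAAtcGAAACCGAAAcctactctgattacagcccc
Irgm1 held 2 overlapping ISRE cores and no GAS in this window, shown in capitals.
Irgm1, chr11:48871428-48871457, minus strand: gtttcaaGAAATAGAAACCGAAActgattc
For Ifi47 neither sequence was found in this window, which lies upstream of position 49076587. The coding loop of Ifi47 begins at 49095642, and sequence between these positions was not searched. The stretches of Igtp and Irgm2 are close copies of each other, as are those of Tgtp1 and Tgtp2. The counts above are therefore not of independent promoters. Among the other tested IRG genes, Gm12250 held both sequences without the joint arrangement. Gm5431, 9930111J21Rik1, 9930111J21Rik2 and Irgq held neither. A match of letters is not a measured binding site.

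Library totals lay between 27116201 and 39698572 counts, so that 3 counts correspond to 0.0785 to 0.11 CPM (counts scaled to the size of the library with the TMM method). Siglece mRNA was not lower but somewhat higher in the libraries labelled EKO. The log2 fold change was 0.31 ± 0.08 with OVA and 0.41 ± 0.08 without (edgeR quasi-likelihood test, adjusted p = 0.0106 and 0.00261). The level of Siglece was 150.2 to 163 CPM over the CtrV and 166 to 235 CPM over the EKO-labelled libraries. A small edit in the coding sequence need not lower the mRNA, so the counts do not check the labels. The paper reports that the pooled clones had little or no Siglec-E when screened. All 10 DC marker genes were expressed, among them Itgax and Cd74, and none of the T cell, B cell, NK cell, neutrophil, fibroblast and erythroid markers passed the filter. Cd3e, Ncr1, Ly6g and Dcn had no count in any library. The summed level of 6 macrophage markers, all expressed, was 1361 to 1552 CPM over the 6 CtrV and 1829 to 2066 CPM over the 6 EKO-labelled libraries. It differed between the lines in the same direction as the GTPases, and its part in their difference was not tested. In bulk RNA, a smaller number of expressing cells and less RNA per cell cannot be told apart. Replicates are numbered in the labels, which do not say how they were separated, so p-values measure the spread between these samples only. Libraries standing apart were unpulsed EKO-labelled replicate 1, in which the members were low, and OVA-pulsed CtrV replicate 1, in which they were high.

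The members were expressed at moderate to high levels, with the exception of Iigp1. Divided by the exon length of the gene, the mean level over the 12 libraries was highest for Gvin1 at 39.6 CPM per kb, followed by Irgm1 at 28.5, Ifi47 at 27.2, Igtp at 26.4, Irgm2 at 21.9, Tgtp1 at 21.1 and Tgtp2 at 17.8. These levels stood between the 72.3rd and 86.5th percentile of 14056 genes. Gvin1 was above Irgm1 in 12 of 12 libraries, and Tgtp1 above Tgtp2 in 12 of 12. How reads were divided between close copies is uncertain for Gvin1, Tgtp1 and Tgtp2, and so are their places in this order. Irgm1 was above Ifi47 in 11 of 12 libraries. The order of the genes below them varied between libraries. Ifi47 was above Igtp in 0 of 6 CtrV but 5 of 6 EKO-labelled libraries, and Igtp was above Irgm2 in 3 of 6 CtrV and 6 of 6 EKO-labelled libraries. Irgm2 was above Tgtp1 in 8 of 12 libraries. In CtrV cells the regulators were close to each other, with 17.1 ± 3.22 CPM per kb for Irgm1, 17.3 ± 2.10 for Igtp and 17.0 ± 2.21 for Irgm2 (SD, n = 6). In EKO-labelled cells they lay apart, at 40.0 ± 8.49, 35.5 ± 8.80 and 26.9 ± 5.03 CPM per kb.

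Iigp1 (ENSMUSG00000054072), a well studied effector in infected cells that lies on chromosome 18 from 60376027 to 60392634 (plus strand), was nearly absent. Its counts were 4, 2 and 2 in unpulsed CtrV, 6, 5 and 3 in OVA-pulsed CtrV, 2, 3 and 9 in unpulsed EKO-labelled and 3, 11 and 3 in OVA-pulsed EKO-labelled libraries. 7 of the 12 libraries were at or below 3 counts, the groups overlapped, and the gene was not tested. The neighbouring IRG genes on chromosome 18 were at the same floor. Gm4951 had at most 3 counts in any library, F830016B08Rik at most 3, and Gm4841 none. The effector genes expressed in this line were thus those of chromosome 11.

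**Figure D1:**
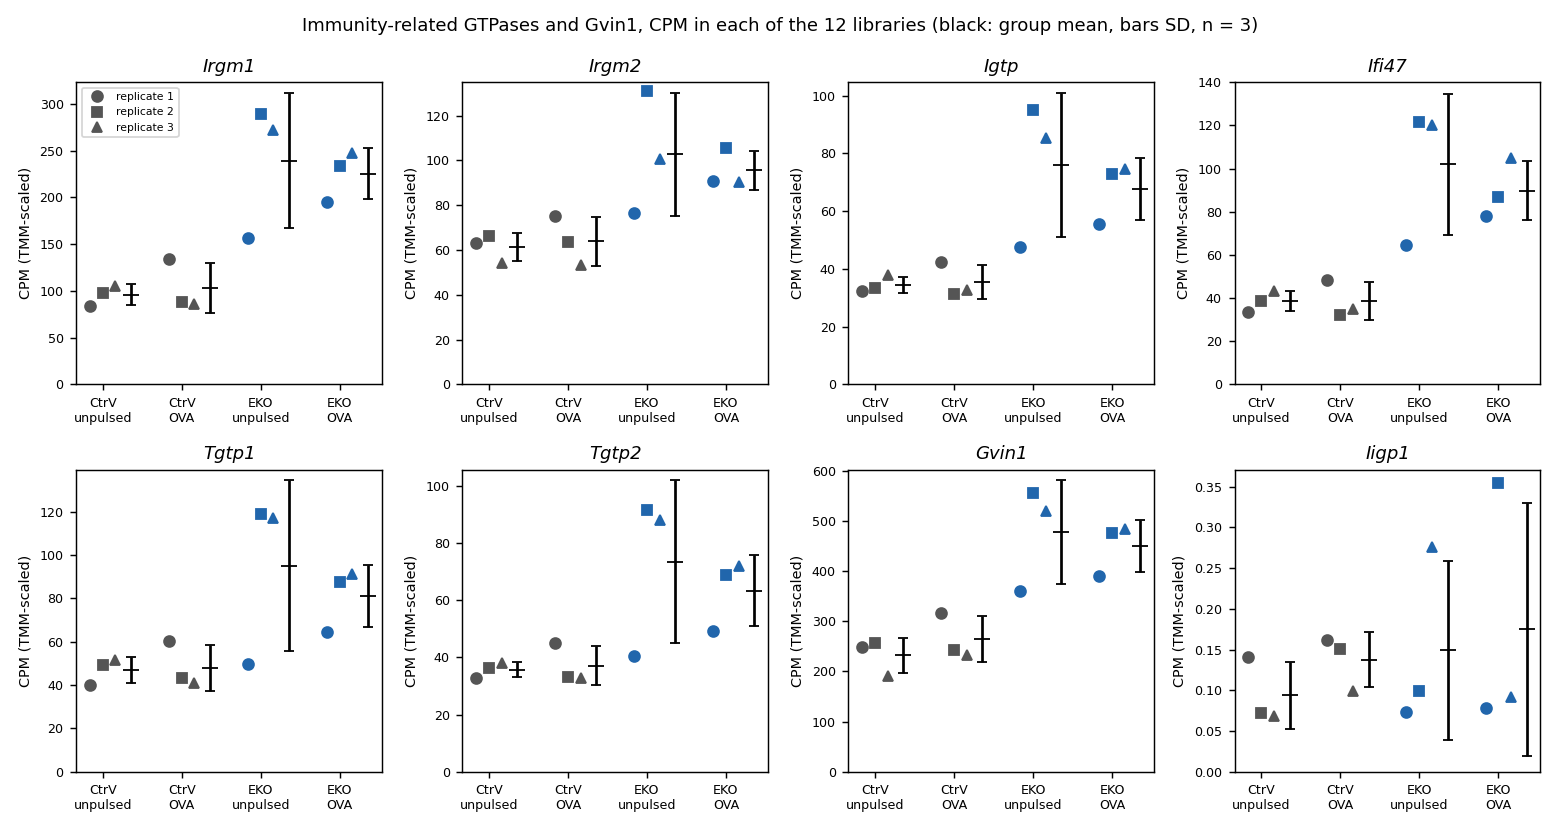
CPM of each of the 8 genes (vertical axis, linear, one scale per gene) in the 12 libraries by group, with CtrV in grey and EKO-labelled in blue. Symbols give the replicate number and black bars the mean ± SD of 3 libraries. For 7 genes replicates 2 and 3 of the EKO-labelled cells lie above every CtrV library, replicate 1 (circle) is the lowest unpulsed EKO-labelled library, and Iigp1 is at most 0.354 CPM.

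The main comparison of the study, with OVA, set EKO-labelled against CtrV cells, both pulsed with OVA and stimulated with LPS, and asked how the DC response differs without Siglec-E. All 7 tested members rose in EKO-labelled cells at an adjusted p under 0.05 (edgeR quasi-likelihood test, Benjamini-Hochberg adjustment over all tested genes), while 25.1% of all tested genes did so and 47% changed in either direction. For all 7 the 3 EKO-labelled libraries lay above the 3 CtrV libraries, which was the case for 27% of all tested genes. Because the members and the lists further on were chosen with earlier results known, such counts are description and not a test. The changes ran from 1.49-fold for Irgm2 to 2.28-fold for Ifi47, with a median log2 fold change of 0.76 beside 0.00064 over all tested genes. In unpulsed cells all 7 rose again, with 24.5% of all tested genes doing so and 46.4% changing in either direction, from 1.67-fold for Irgm2 to 2.62-fold for Ifi47 and a median log2 fold change of 1.04. For 6 of the 7, all but Tgtp1, the unpulsed libraries of the lines did not overlap, against 24.1% of all tested genes. The order of the fold changes was the same in both comparisons, with Ifi47, Irgm1 and Igtp first and Irgm2 last, though the 95% intervals of all 7 had values in common in each comparison.

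Among the regulators, Irgm1 differed most between the lines. Irgm1 is required for the control of several bacteria and takes part in autophagy. In CtrV cells Irgm1 lay at 84.0, 98.1 and 106 CPM without OVA and at 134, 88.3 and 86.3 CPM with OVA. In EKO-labelled cells it lay at 156, 289 and 272 CPM without and at 195, 234 and 247 CPM with OVA. No EKO-labelled library reached down into the CtrV range. The log2 fold change was 1.11 ± 0.23 (SE) with OVA (edgeR, adjusted p = 0.0023) and 1.31 ± 0.23 without (edgeR, adjusted p = 0.000863).

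Igtp encodes a regulator found on the endoplasmic reticulum and on lipid droplets. Its CtrV libraries held 32.2, 33.4 and 37.7 CPM in the unpulsed and 42.3, 31.5 and 32.6 CPM in the OVA-pulsed group. The EKO-labelled libraries held 47.7, 94.9 and 85.5 CPM without and 55.4, 72.9 and 74.6 CPM with OVA. Replicate 1 was again the lowest of the 3 EKO-labelled libraries in both conditions, and the lines did not overlap. Igtp rose by a log2 fold change of 0.90 ± 0.21 with OVA (edgeR, adjusted p = 0.00453) and 1.12 ± 0.21 without (edgeR, adjusted p = 0.00134).

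Irgm2 encodes a regulator of the Golgi apparatus and showed the smallest difference of the 7. It lay at 63.1, 66.2 and 54.1 CPM in unpulsed and 75.0, 63.7 and 53.1 CPM in OVA-pulsed CtrV libraries. In EKO-labelled libraries it lay at 76.3, 131 and 100.7 CPM without and at 91.0, 106 and 90.1 CPM with OVA. The gap was narrow, since the lowest unpulsed EKO-labelled library was hardly above the highest CtrV library. The log2 fold change was 0.58 ± 0.15 with OVA (edgeR, adjusted p = 0.00906) and 0.74 ± 0.15 without (edgeR, adjusted p = 0.00237). With OVA the call was lost without CtrV replicate 2 (log2 fold change 0.46, adjusted p = 0.0634 by edgeR) or CtrV replicate 3 (0.49, adjusted p = 0.0515 by edgeR).

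Ifi47, an effector that was first described as an interferon gamma-inducible protein, rose most. In CtrV cells it was measured at 33.8, 38.6 and 43.3 CPM without OVA and at 48.6, 32.0 and 34.8 CPM with OVA. In EKO-labelled cells the values were 64.4, 121 and 120.4 CPM without and 77.9, 86.7 and 105 CPM with OVA. The lowest EKO-labelled library was above the highest CtrV library. The log2 fold change was 1.19 ± 0.22 with OVA (edgeR, adjusted p = 0.00131) and 1.39 ± 0.22 without (edgeR, adjusted p = 0.000515).

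Tgtp1 and Tgtp2 encode nearly the same effector, which binds early to the vacuole of Toxoplasma. Tgtp1 lay at 39.9, 49.4 and 51.6 CPM in unpulsed CtrV libraries and at 60.3, 43.1 and 40.9 CPM in those with OVA. In EKO-labelled libraries it lay at 49.5, 119 and 117 CPM without and at 64.5, 87.4 and 91.2 CPM with OVA. Without OVA the lines overlapped, since EKO-labelled replicate 1 fell below CtrV replicate 3. Tgtp2 behaved alike, with 32.9, 36.2 and 38.1 CPM in unpulsed and 45.0, 33.3 and 33.0 CPM in OVA-pulsed CtrV libraries. Its EKO-labelled libraries held 40.6, 91.7 and 88.1 CPM without and 49.1, 68.8 and 71.9 CPM with OVA. Within each condition the lines did not overlap, by a small margin in replicate 1. With OVA the log2 fold change was 0.70 ± 0.26 for Tgtp1 (edgeR, adjusted p = 0.0494) and 0.72 ± 0.24 for Tgtp2 (edgeR, adjusted p = 0.0302). Without OVA it was 0.98 ± 0.26 for Tgtp1 (edgeR, adjusted p = 0.0114) and 1.00 ± 0.24 for Tgtp2 (edgeR, adjusted p = 0.00635).

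The Tgtp1 call with OVA was the weakest of all. It was lost without the replicate block (log2 fold change 0.75, adjusted p = 0.0537 by edgeR), with DESeq2 (adjusted p = 0.0862), with RLE or upper-quartile scaling (edgeR, adjusted p = 0.0521 and 0.0553) and without any one of 8 of the 12 libraries. Without CtrV replicate 2 the log2 fold change was 0.50 for Tgtp1 and 0.54 for Tgtp2 (edgeR, adjusted p = 0.219 and 0.154), and without CtrV replicate 3 it was 0.48 and 0.54 (adjusted p = 0.213 and 0.143). Without CtrV replicate 1 it was 1.16 for Tgtp1 and 1.12 for Tgtp2. Without EKO-labelled replicate 2 or 3 both calls were lost, at adjusted p = 0.114 and 0.129 for Tgtp1 and 0.0853 and 0.0965 for Tgtp2. Without EKO-labelled replicate 1 the Tgtp1 call was also lost (adjusted p = 0.0905). Leaving out any of the 3 unpulsed CtrV libraries took it to adjusted p = 0.0568 to 0.067. The call of Tgtp1 without OVA was lost without EKO-labelled replicate 2 (log2 fold change 0.78, adjusted p = 0.0645) or 3 (0.80, adjusted p = 0.0598). Counted together as 1 gene, Tgtp1 and Tgtp2 rose by a log2 fold change of 0.71 with OVA (edgeR, adjusted p = 0.0405) and 0.99 without (edgeR, adjusted p = 0.00898).

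Gvin1, which shares most of its sequence with Gm4070, had the highest level of the members as counted. In CtrV cells it held 249, 256 and 191 CPM in the unpulsed and 317, 243 and 233 CPM in the OVA-pulsed group. In EKO-labelled cells it held 361, 556 and 519.9 CPM without and 390.1, 476 and 484 CPM with OVA. The lines did not overlap. The log2 fold change was 0.76 ± 0.18 with OVA (edgeR, adjusted p = 0.00472) and 1.04 ± 0.18 without (edgeR, adjusted p = 0.000735). When the counts of Gm4070 were added, which was chosen after the data had been seen, the values were 0.77 and 1.03.

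**Figure D2:**
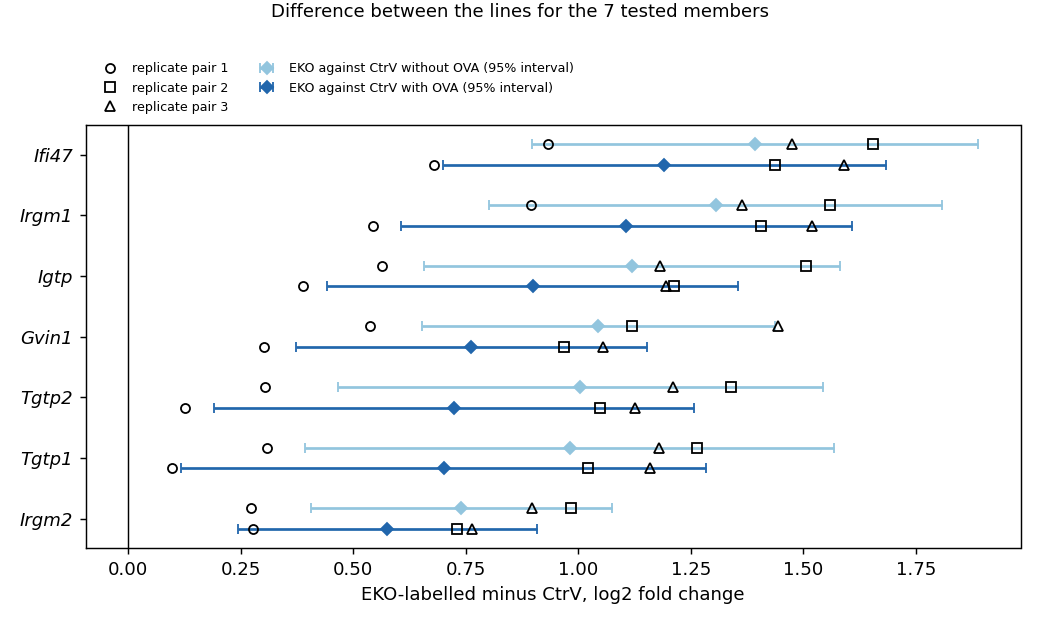
Log2 fold change of EKO-labelled over CtrV cells (horizontal axis) for the 7 tested members, with OVA in dark blue and without in light blue, as fitted value with its 95% interval. Open symbols give the difference within each replicate pair. Pair 1 is the smallest difference in every row, and no interval reaches 0.

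The difference was not the same in the 3 replicate pairs. With OVA, pair 1 differed by log2 values of 0.099 for Tgtp1 to 0.68 for Ifi47, and pairs 2 and 3 by 0.73 for Irgm2 to 1.59 for Ifi47. Without OVA, pair 1 differed by 0.27 for Irgm2 to 0.93 for Ifi47, and the other pairs by 0.90 for Irgm2 to 1.66 for Ifi47. EKO-labelled cells were higher in 3 of 3 pairs for each of the 7 genes in both conditions. Except for Tgtp1 without OVA, this follows from the lack of overlap and is not a separate result. Unpulsed libraries of the lines with the same number were little alike, with correlations of deviations of -0.0187 to 0.239. In unpulsed EKO-labelled cells, the mean of replicates 2 and 3 was 1.49 times replicate 1 for Gvin1, 1.52 times for Irgm2, 1.79 times for Irgm1, 1.88 times for Ifi47, 1.89 times for Igtp, 2.22 times for Tgtp2 and 2.38 times for Tgtp1. In OVA-pulsed EKO-labelled cells this ratio was only 1.08 for Irgm2 to 1.43 for Tgtp2. There pair 1 was narrowed by the CtrV side as well, since CtrV replicate 1 was the highest CtrV library with OVA for all 7 genes. Leaving out both EKO-labelled libraries of replicate 1 raised each difference, to between 0.70 for Irgm2 and 1.37 for Ifi47 with OVA and between 0.99 for Irgm2 and 1.70 for Ifi47 without.

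Genes of interferon beta and of the receptors for interferon were read beside the members. Ifnb1, the gene of interferon beta, had 4, 6 and 9 counts in unpulsed and 7, 4 and 4 counts in OVA-pulsed CtrV libraries. In EKO-labelled libraries it had 23, 205 and 113 counts without and 87, 112 and 94 counts with OVA. Unpulsed EKO-labelled replicate 1 was the lowest EKO-labelled library for Ifnb1 as it was for the GTPases, with 0.843 CPM beside 5.11 CPM in the mean of the other 2 replicates. With OVA, Ifnb1 rose by a log2 fold change of 4.29 ± 0.55 (edgeR, adjusted p = 0.000105). Of its receptor chains, Ifnar2 fell by 0.31 ± 0.06 on the log2 scale with OVA (edgeR, adjusted p = 0.00141), and Ifnar1 had a log2 fold change of -0.16 ± 0.06 that did not pass (edgeR, adjusted p = 0.0643). Of the interferon gamma receptor chains, Ifngr1 fell by 1.11 ± 0.05 on the log2 scale (edgeR, adjusted p = 1.04e-07), and Ifngr2 rose by 0.96 ± 0.06 (edgeR, adjusted p = 3.26e-07). Stat2 and Irf9, whose proteins belong to the complex that binds the ISRE, rose by 0.93 ± 0.17 and 0.77 ± 0.12 (edgeR, adjusted p = 0.00103 and 0.000352). Irf1 had a log2 fold change of 0.19 ± 0.08 that did not pass with OVA (edgeR, adjusted p = 0.0724) and one of 0.23 ± 0.08 that did without (edgeR, adjusted p = 0.0363). What part any of these had in the GTPase levels was not tested. Of 21 tested genes of interferon signalling, 13 rose and 3 fell with OVA (median log2 fold change 0.60), and 14 rose and 3 fell without (median 0.46). Over all tested genes, 25.1% rose and 21.9% fell with OVA, and 24.5% rose and 21.9% fell without.

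No member was called for a change with OVA pulsing. The question of whether the difference between the lines depended on OVA was addressed by an interaction term, which had log2 values between -0.16 for Irgm2 and -0.28 for Gvin1. Each fitted difference was smaller with OVA than without, but the 95% interval of the interaction included 0 for each of the 7, from -0.63 to 0.30 for Irgm2 and from -1.10 to 0.54 for Tgtp1. By edgeR, 0 of the 7 members and 0% of the tested genes passed the adjusted threshold. 0 of the 7 members and 269 of 14079 genes were under an unadjusted p of 0.05. DESeq2 and limma voom also called 0 genes. Without OVA-pulsed CtrV replicate 1 the interaction was positive for 6 of the 7 genes, at 0.05 for Irgm2 to 0.24 for Irgm1, and -0.04 for Gvin1.

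Within each line, OVA-pulsed and unpulsed cells were compared in the same fit. In CtrV cells the log2 fold changes were 0.03 for Ifi47 to 0.20 for Gvin1. In EKO-labelled cells they were between -0.07 for Irgm1 and -0.20 for Tgtp1. By edgeR, 0 members passed in either line, and 0% of all tested genes did. Under an unadjusted p of 0.05 were 0 members in either line, with 231 genes in CtrV and 394 in EKO-labelled cells, and DESeq2 and limma voom again called 0 genes. The 95% intervals allow changes of some size, from -0.37 to 0.63 for Irgm1 in CtrV and from -0.77 to 0.37 for Tgtp1 in EKO-labelled cells. Differences between libraries of the same number went in opposite directions. In CtrV cells the numbers were not taken to pair these libraries (correlations of deviations 0.0471, 0.161 and 0.344). Pair 1 holds the libraries that stood apart, OVA-pulsed CtrV replicate 1 and unpulsed EKO-labelled replicate 1. The genes also varied together, so the 7 are not separate observations. In pair 1 all 7 genes were higher with OVA in both lines, by 0.25 for Irgm2 to 0.67 for Irgm1 in CtrV and by 0.11 for Gvin1 to 0.38 for Tgtp1 in EKO-labelled cells. In pair 2 all 7 were lower with OVA in both lines. In pair 3 all were lower except Gvin1 in CtrV cells, which was higher by 0.28. Without OVA-pulsed CtrV replicate 1 the values in CtrV cells were all negative, from -0.04 for Gvin1 to -0.38 for Tgtp1. Without unpulsed EKO-labelled replicate 2 the values in EKO-labelled cells were all positive, with the highest at 0.11 for Irgm1.

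**Figure D3:**
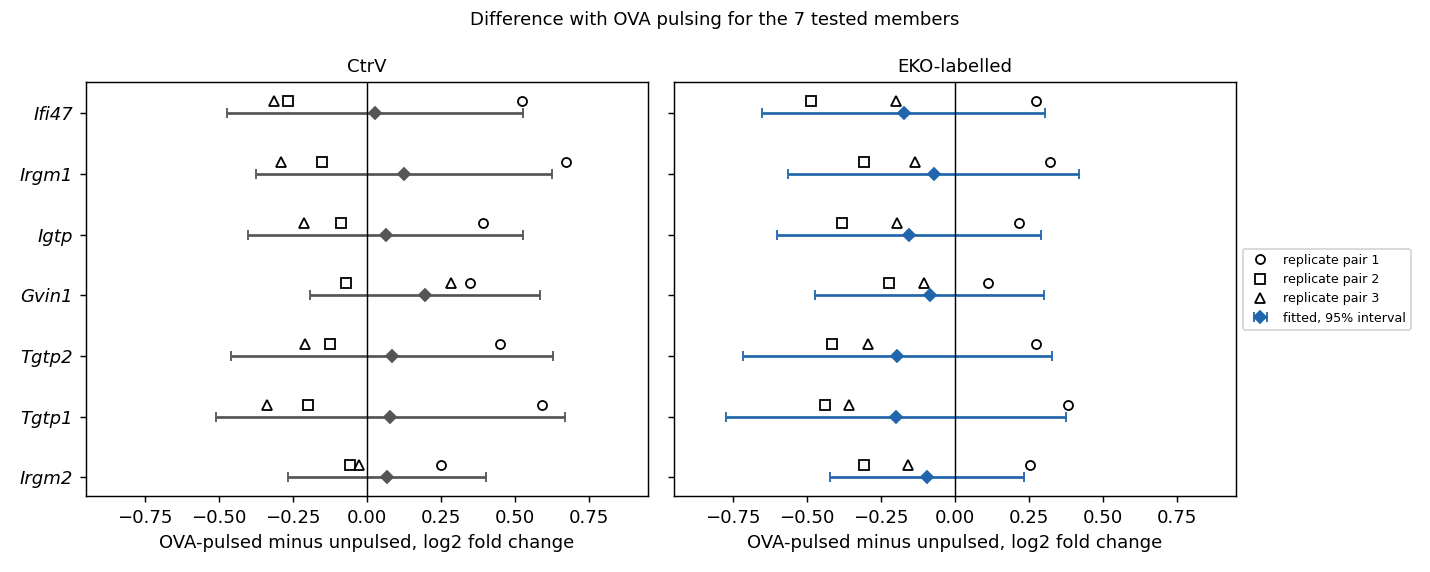
Log2 fold change of OVA-pulsed over unpulsed cells (horizontal axis) for the 7 tested members in CtrV (left) and EKO-labelled cells (right), as fitted value with its 95% interval. Open symbols give the replicate pairs. All 14 intervals include 0, and pair 1 lies to the right of the other pairs in each row.

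The make-up of the IRG mRNA was then compared between the lines, since regulators keep effectors inactive on the membranes of the host cell. The level of the 7 IRG genes, summed as CPM per kb, was 92.5 ± 6.87 in unpulsed and 95.8 ± 19.4 in OVA-pulsed CtrV cells, and 203 ± 66.5 and 181 ± 24.1 in EKO-labelled cells (SD, n = 3 each). Regulators made up 54.6% ± 1.30 of it in CtrV and 53.7% ± 2.32 in EKO-labelled libraries (SD, n = 6 each). The difference of -0.88 percentage points was within the spread (exact two-sided permutation test within pulsing conditions, p = 0.45, smallest possible 0.005). The share lay between 50.2% and 56.3% in all 12 libraries. The result depended on the Tgtp genes and on the scale. Without Tgtp1 and Tgtp2 the difference was -4.15 percentage points (exact permutation test, p = 0.005, the smallest it can give). The effectors left there are Ifi47, the member that rose most, and the nearly absent Iigp1, so this value rests on Ifi47. With CPM not divided by length the difference was 0.22 (exact permutation test, p = 0.845).

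Single genes shifted within the sum, a pattern chosen after the values had been seen and given as description. Ifi47 made up 15.1% to 17.9% of the IRG level in CtrV and 18.4% to 21.3% in EKO-labelled libraries. Irgm1 made up 17.0% to 19.5% and 19.9% to 21.8%. Both shares were higher in every EKO-labelled library. Tgtp2 moved the other way, with 12.96% to 13.4% in CtrV and 10.8% to just under 12.96% in EKO-labelled libraries. Irgm2 had a median share of 18.1% in CtrV and 14.6% in EKO-labelled libraries, with overlap, and Igtp one of 18.5% and 18.6%. The ratio of Ifi47 to Irgm2, an effector and a regulator, in CPM per kb was 0.798, 0.869 and 1.19 in unpulsed and 0.966, 0.75 and 0.98 in OVA-pulsed CtrV libraries. It was 1.26, 1.38 and 1.78 in unpulsed and 1.28, 1.22 and 1.74 in OVA-pulsed EKO-labelled libraries. This ratio does not depend on how libraries are scaled. Every EKO-labelled library was above every CtrV library, with unpulsed EKO-labelled replicate 1 the lowest of its group.

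**Figure D4:**
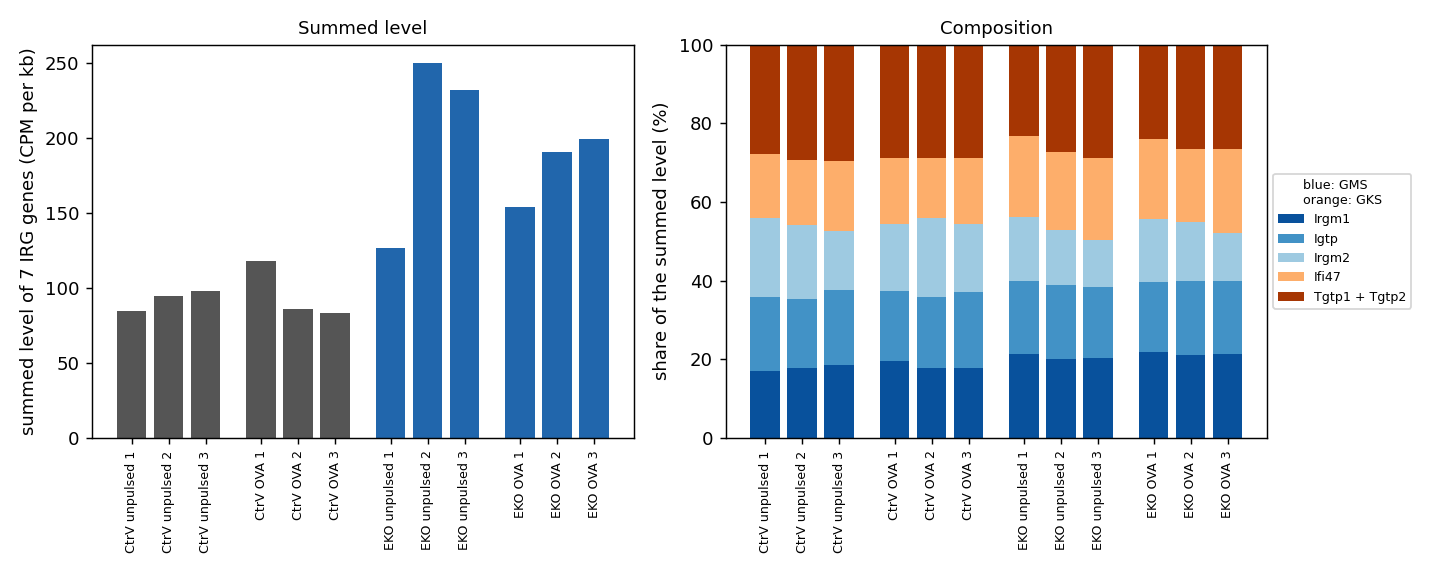
Left, the summed level of the 7 IRG genes in each library (bars from 0, CPM per kb), and right, the share of each gene in that sum (stacked bars, percent), with regulators in blue and effectors in orange. Iigp1 is too small to be drawn. The sum is higher in EKO-labelled libraries, while the blue part stays between 50.2% and 56.3%.

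Other IRG genes in the annotation changed as well. Of 10 in the table, 6 were tested, and 5 rose and 1 fell in both comparisons. Of all tested genes, 25.1% rose and 21.9% fell with OVA, and 24.5% rose and 21.9% fell without. Gm12250, the gene known as Irgb10 and listed as a processed pseudogene, changed most, with 21.9 ± 5.72 CPM in OVA-pulsed CtrV and 55.2 ± 8.32 CPM in OVA-pulsed EKO-labelled libraries (SD, n = 3 each). Its log2 fold change was 1.30 ± 0.24 with OVA (edgeR, adjusted p = 0.0013) and 1.63 ± 0.25 without (edgeR, adjusted p = 0.000344). Gm5431 and Gm12185 rose with OVA by 1.09 ± 0.21 and 0.69 ± 0.21 (edgeR, adjusted p = 0.00181 and 0.0212). The near copies 9930111J21Rik1 and 9930111J21Rik2 rose by 0.51 ± 0.18 and 0.49 ± 0.15 (edgeR, adjusted p = 0.0352 and 0.0224). Irgq, which has lost the activity of a GTPase and is not induced by interferon, fell by 0.15 ± 0.05 (edgeR, adjusted p = 0.0252). Its level was 26.0 ± 2.34 CPM in OVA-pulsed CtrV and 23.4 ± 2.02 CPM in OVA-pulsed EKO-labelled libraries (SD, n = 3 each), which overlapped.

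The relatives of Gvin1 on chromosome 7, most of them listed as pseudogenes, rose as well. With OVA, 4 of 5 rose, and without OVA 5 of 5, beside 25.1% and 24.5% of all tested genes. Gm4070, the near copy of Gvin1, rose by a log2 fold change of 0.77 ± 0.17 with OVA (edgeR, adjusted p = 0.00421), from 241 ± 45.1 to 414 ± 50.9 CPM. Gm8979, Gm8989 and Gm8995 rose by 0.79 ± 0.19, 0.72 ± 0.16 and 0.59 ± 0.18 (edgeR, adjusted p = 0.00646, 0.00435 and 0.0182). Gm1966 had a log2 fold change of 0.06 ± 0.14 with OVA (edgeR, adjusted p = 0.752) and rose by 0.38 ± 0.14 without (edgeR, adjusted p = 0.0439), with overlapping libraries in both. Except for Gm8995 and Gm1966, these genes share most of their sequence with another copy.

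Guanylate-binding proteins (GBP) work with IRG proteins on the vacuoles of pathogens, and their genes were a further point of comparison. With OVA, 7 of 10 tested GBP genes rose and none fell, with a median log2 fold change of 0.65, while 25.1% of all tested genes rose. Without OVA, 8 of 10 rose (median 0.88), while 24.5% of all tested genes did. Of the 3 with the highest mean level, Gbp5 rose by 1.45 ± 0.18 (edgeR, adjusted p = 9.14e-05) and Gbp2 by 0.40 ± 0.15 (edgeR, adjusted p = 0.0455), the latter with overlapping libraries. Gbp7, in contrast, had a log2 fold change of 0.03 ± 0.11 with OVA (edgeR, adjusted p = 0.839) and 0.18 ± 0.11 without (edgeR, adjusted p = 0.227).

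A further list held the machinery that places IRG and GBP proteins on vacuoles, mainly the autophagy conjugation system. Of 17 tested genes, 5 rose, 2 fell and 10 did not pass with OVA, with a median log2 fold change of 0.04, while 25.1% of all tested genes rose and 21.9% fell. Without OVA, 4 rose and 1 fell, while 24.5% of all tested genes rose and 21.9% fell. With OVA, the largest rise was that of Sqstm1, the gene of the autophagy adaptor p62, with 0.92 ± 0.12 (edgeR, adjusted p = 0.000118). Gabarapl1, of the ubiquitin-like proteins that are conjugated to membranes, fell most with OVA, by 0.24 ± 0.09 (edgeR, adjusted p = 0.0422), and did not pass without OVA, at -0.19 ± 0.09 (edgeR, adjusted p = 0.103).

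**Figure D5:**
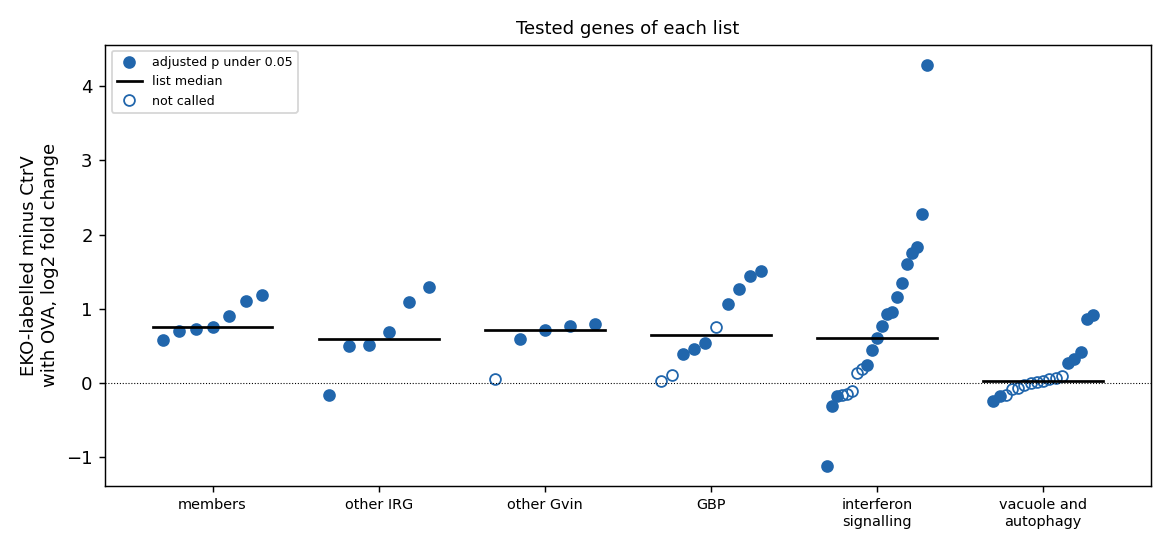
Log2 fold change of EKO-labelled over CtrV cells with OVA (vertical axis) for each tested gene of 6 lists. Filled points passed an adjusted p under 0.05, open points did not, and bars are list medians. The medians are 0.76 for the members, 0.65 for GBP genes and 0.04 for the vacuole and autophagy list, and the highest point is Ifnb1 at 4.29.

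Within the groups, the IRG genes varied together from library to library. Deviations from the group means, over 12 libraries, had correlations between 0.626 and 0.992 among the 6 tested IRG genes, with a median of 0.958 over 15 pairs. The highest was that of Tgtp1 with Tgtp2, which share reads. The lowest was that of Irgm2 with Ifi47, and Irgm2 was nearest to Gvin1, at 0.869. Irgm2 was the loosest of the IRG genes, at 0.626 to 0.738 with the others, which had correlations of 0.952 to 0.992 among themselves. Gvin1 had correlations of 0.718 to 0.869 with the IRG genes. With each IRG gene other than Irgm2, Gvin1 had a higher correlation than Irgm2 had. Among these libraries is unpulsed EKO-labelled replicate 1, which was the lowest of its group for each of these genes. Of 11027 other genes with a mean of at least 5 CPM, those whose deviations were most like the mean of the IRG members were Gm12250 at 0.991, Ddx58 and Ifi207 at 0.988, and Tmem106a and Ifit2 at 0.985. Ddx58 encodes the RNA sensor RIG-I, and Ifit2 and Ifi207 are interferon-induced genes. Over the levels themselves, which include the difference between the lines, the 5 most alike were Ddx58, Phf11d, Phf11c, Usp25 and Gm12250. These values describe 12 libraries and say nothing of how the genes are controlled.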

How the data were processed

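Raw counts per gene were deposited for 12 libraries. According to the study's methods and the submitters' processing notes, the authors aligned reads to mm10 with STAR, allowing up to 10 hits and reporting 1 location, and counted 5′ read ends on the exon union of each Ensembl gene with featureCounts. The labels name a stranded mRNA preparation. OVA was given at 0.1 mg/ml and LPS at 0.1 ug/ml, doses that the methods state for pulsed cells.

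Groups and replicate numbers were taken from the labels. Genes were tested in edgeR 4.0.16 (R 4.3.3) if their log2 CPM exceeded 0 in 2 or more libraries. The quasi-likelihood model took TMM-scaled counts of all 12 libraries, with terms for group and replicate number, and p-values were adjusted by the Benjamini-Hochberg method (threshold 0.05). SE is the log2 fold change divided by the square root of F. The replicate block is the study's design. Deviations of same-numbered OVA-pulsed libraries of both lines had correlations of 0.442, 0.277 and 0.263, and those of unpulsed libraries 0.0463, -0.0187 and 0.239. Between unpulsed and OVA-pulsed libraries they were 0.687, 0.324 and 0.364 in EKO-labelled and 0.0471, 0.161 and 0.344 in CtrV cells. All 3 exceeded 0.1 between the OVA-pulsed lines and within EKO-labelled cells, so the numbers were taken to pair those libraries. Within pairs, log2 CPM had a prior count of 0.5. Symbols, positions and exon lengths came from GENCODE M21 (GRCm38), which is not the authors' annotation. Shares were tested by exact permutation. Alternatives were DESeq2 1.42.0, limma voom 3.58.1, other scalings, filters and thresholds, no block, summed copies and left-out libraries. The steps were tested on simulated counts.

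Members and gene lists were chosen with earlier results of these data known. The text names all members, every tested relative, the 3 most abundant GBP genes, interferon genes of a listed set (Ifnar1 and Ifnar2 were added after their values were seen), the called autophagy genes with the largest rise and fall, and the 5 most similar genes. P-values for lists were not computed. Some items of these lists are not reported here.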

Additional observations from a re-analysis of the deposited data

How the results depend on the processing

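The replicate block was part of the main design, and without the replicate block 6 of 7 members were called with OVA and 7 of 7 without, Tgtp1 being the call lost. With OVA, requiring an absolute log2 fold change of at least 1 left 2 members (Ifi47 and Irgm1), and leaving out single libraries gave 4 to 7, with 4 when OVA-pulsed CtrV replicate 2 or 3 was left out, where Irgm2, Tgtp1 and Tgtp2 lost their call. Without OVA, leaving out single libraries gave 6 or 7. For single members with OVA, 149 of 174 alternative values kept direction and call and 25 lost the call, and 0 changed direction. Without OVA, 169 of 174 kept both and 5 lost the call. For the interaction and for OVA pulsing, 0 members were called under each alternative that was run, while fitted values near 0 changed sign. The 6 compared libraries alone cannot hold the interaction, which was not run there. Median shifts of all genes under RLE or upper-quartile scaling were at most 0.05 in size on the log2 scale, and each of these scalings ended the call of Tgtp1 with OVA (adjusted p = 0.0521 and 0.0553 by edgeR). For the regulators' share, the difference of -0.88 points turned to 0.22 when CPM was not divided by length, and was -4.15 without Tgtp1 and Tgtp2, where the effectors left are Ifi47 and Iigp1. It was -1.66 to -0.16 when single libraries were left out. The cause of these changes was not tested. At 3 libraries a group and this depth, Iigp1 could not be compared.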
